A study of Mus musculus with 2 samples.

Results

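The genes described here are the small heat shock protein genes *Hspb1*, *Hspb2*, *Hspb3*, *Hspb6*, *Hspb7*, *Hspb8* and *Cryab*, their cochaperone *Bag3*, and the myosin assembly factors *Unc45b* and *Smyd1*. They were chosen by symbol from the deposited table, and all 10 were found among its 22095 genes. The data are 1 library of polyadenylated RNA from C2C12 cells transfected with the negative control oligo siNC and 1 library from cells transfected with si*Malat1*, an siRNA against the nuclear long non-coding RNA *Malat1*. C2C12 cells are mouse myoblasts, an established line, that stop dividing and fuse into myotubes when serum is withdrawn. Both cultures had been grown in DMEM with 10% FBS and moved to differentiation medium (DM) with 2% horse serum, where they stayed for 2 days by the methods of the study. The comparison asks which transcripts differ when *Malat1* is targeted in differentiating myoblasts. With 1 library per oligo there is no replicate, so the spread between cultures is unknown and no p-value is given.

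*Malat1* itself stood at 41.8 FPKM (fragments scaled to transcript length and to the mapped fragments of the library) with siNC and at 34.2 FPKM with si*Malat1*, a log2 ratio of -0.29. Log2 ratios throughout are of si*Malat1* over siNC after adding 0.1 FPKM to each value, which understates the difference of low genes. Both libraries carried the markers of muscle, among them *Des* at 1652 FPKM with siNC and 1805 FPKM with si*Malat1*. Of the 6 muscle markers measured, 4 were on the higher side with si*Malat1* and 2 on the lower side. *Myog*, the regulator of terminal differentiation, stood at 525 FPKM with siNC and 857 FPKM with si*Malat1*, and *Mef2c*, which acts with it, at 5.81 and 11.1 FPKM. The myoblast regulators were the 2 on the lower side, *Myod1* at 113 and 95.8 FPKM (log2 ratio -0.23) and *Myf5* at 23.8 and 17.3 FPKM (-0.46). How far the differentiation state of the cultures takes part in the differences described here was not tested. Of 19 measured markers of adipocytes, leukocytes, endothelium, neurons and glia, 1 averaged 1 FPKM or more, namely *Cd14* (5.80 FPKM with siNC and 4.84 with si*Malat1*), and the adipocyte genes *Adipoq*, *Cidec* and *Plin1* were listed at 0 in both. These are bulk cultures, in which a larger share of differentiated cells and more RNA per differentiated cell cannot be told apart.

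Small heat shock proteins are chaperones without ATPase activity. They share a conserved alpha-crystallin domain, assemble into oligomers and hold partly unfolded proteins until HSP70 can refold them or pass them on for degradation. In striated muscle they are abundant and bind desmin, filamin, titin and actin at the Z disc and the I band. HSPB8 works with BAG3, which links it to HSP70 and delivers damaged filamin C to autophagy. Myosin heads need a folding machinery of their own, in which UNC45B, a cochaperone of HSP90, folds the motor domain, and SMYD1, a methyltransferase of heart and skeletal muscle, takes part in building the thick filament.

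Of the 7 small heat shock genes, 5 had a higher level with si*Malat1* than with siNC, and *Hspb1* and *Hspb6* a slightly lower one, with a median log2 ratio of 0.33. Both myosin assembly factors were on the higher side and *Bag3* was on the lower side. Of the 10 genes, 7 were on the higher side and 3 on the lower side. Their median log2 ratio was 0.41 against -0.04 over the 11132 genes averaging 1 FPKM or more. Of those 11132 genes, 4735 were on the higher side and 6397 on the lower side, which is the base for each count by side in this report. By 1.5-fold or more, 4 were higher with si*Malat1* (*Hspb3*, *Hspb7*, *Hspb2* and *Smyd1*), where 2.39% of those 11132 genes were. None, 0 of the 10, was lower by that much, where 1.93% of the 11132 genes were. The members were picked with earlier results of these libraries known, so the counts describe them and are no evidence of a direction. Past a log2 ratio of 0.32 stood *Unc45b* and *Hspb8* as well, beside 6.58% of all genes tested, and at 2-fold *Hspb3* and *Hspb7* were left, beside 0.826% of all genes tested. *Hspb8* fell short of the 0.32 line with libraries scaled to the same sum (0.28), and *Cryab* passed it when centred on the median (0.34). *Smyd1* lay just past the 1.5-fold line and fell short of it when each library was scaled to the same sum of FPKM, with a log2 ratio of 0.58.

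**Figure D1:**
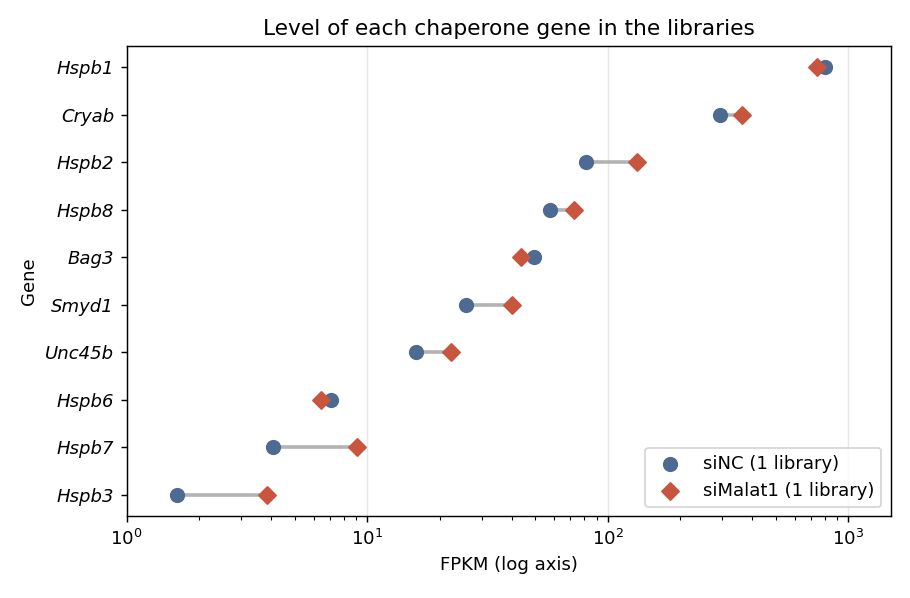
FPKM of each of the 10 genes in the siNC library (circles) and the si*Malat1* library (diamonds) on a log axis, ordered by the level with siNC, with a gray line joining the values of a gene. *Hspb1* is the highest gene at 803 and 742 FPKM and *Hspb3* the lowest at 1.63 and 3.82 FPKM, and the widest gaps belong to *Hspb3*, *Hspb7* and *Hspb2*.

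The levels of these genes spanned a wide range, 494-fold between *Hspb1* and *Hspb3* with siNC and 194-fold with si*Malat1*. FPKM are scaled to transcript length, and on that basis levels of different genes are set side by side here. Length is the only difference between genes that this scaling takes out, so ratios and shares between genes are approximate. The order with siNC was *Hspb1*, *Cryab*, *Hspb2*, *Hspb8*, *Bag3*, *Smyd1*, *Unc45b*, *Hspb6*, *Hspb7* and *Hspb3*. It was the same with si*Malat1* except that *Hspb7* stood above *Hspb6*. Whether neighbors in this order differ beyond the spread between cultures cannot be said from single libraries.

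*Hspb3* had the largest log2 ratio of the 10 genes. It encodes a small member of the family that forms a complex with HSPB2 and is induced during muscle differentiation. *Hspb3* stood at 1.63 FPKM with siNC and at 3.82 FPKM with si*Malat1*, a log2 ratio of 1.18, which is above that of 99.5% of the genes tested. It is also the lowest of the 10 genes, and with a pseudocount of 1 FPKM its log2 ratio was 0.88. *Hspb7*, the cardiovascular small heat shock protein, which binds filamin C and prevents aggregation, stood at 4.04 FPKM with siNC and at 9.07 FPKM with si*Malat1*. Its log2 ratio of 1.15 was above that of 99.4% of the genes tested. Of the 4428 genes averaging from 1 to under 10 FPKM, 3.82% were higher and 3.97% lower by 1.5-fold or more. Of the 5824 genes averaging from 10 to under 100 FPKM, 1.17% were higher and 0.618% lower by that much. At 100 FPKM or more the shares were 3.3% and 0.341%.

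*Hspb2*, also called myotonic dystrophy kinase-binding protein, stood at 81.1 FPKM with siNC and at 133 FPKM with si*Malat1*. Its log2 ratio was 0.71, above that of 98.3% of the genes tested. Of the 880 genes averaging 100 FPKM or more, 3.3% were higher by 1.5-fold or more. *Hspb2* exceeded its partner *Hspb3* 49.9-fold with siNC and 34.7-fold with si*Malat1*.

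*Hspb2* lies back to back with *Cryab*, which encodes alphaB-crystallin, a chaperone of desmin that is shared by the eye lens, heart and skeletal muscle. In the table the *Hspb2* locus spans chromosome 9 of mm9 from 50559177 to 50560459 and the *Cryab* locus from 50560863 to 50564738, with 403 bases between them. In GENCODE M21, which uses the later build GRCm38, *Hspb2* is on the minus strand and *Cryab* on the plus strand, and the annotated gene bodies overlap. The strand of the libraries is not stated in the sources used here, so whether fragments in such an overlap were assigned by strand is unknown. *Cryab* stood at 293 FPKM with siNC and at 362 FPKM with si*Malat1*, a log2 ratio of 0.30 against 0.71 for *Hspb2*. The FPKM of *Hspb2* thus came to 0.277 of that of *Cryab* with siNC and 0.367 with si*Malat1*. Both neighbors were on the higher side, *Hspb2* by the wider margin.

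**Figure D2:**
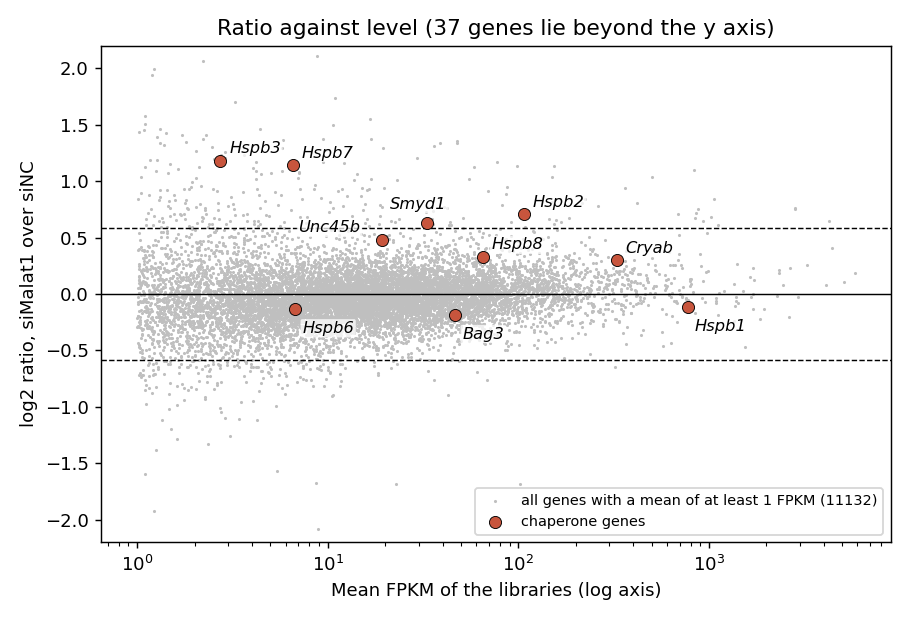
Log2 ratio of si*Malat1* over siNC against the mean FPKM of the libraries (log axis) for the 11132 genes averaging 1 FPKM or more (gray) and the 10 chaperone genes (red), with dashed lines at 1.5-fold. *Hspb3*, *Hspb7*, *Hspb2* and *Smyd1* lie above the upper line, *Hspb1*, *Hspb6* and *Bag3* lie just under 0, and 37 genes fall beyond the y axis.

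*Hspb1*, which encodes HSP25 in mouse, a stress-induced protein that binds actin, was the highest of the 10 genes. It stood at 803 FPKM with siNC and at 742 FPKM with si*Malat1*, a log2 ratio of -0.11, which is above that of 33.3% of the genes tested and so within their middle range. *Hspb6*, which encodes HSP20 of smooth, cardiac and skeletal muscle, stood at 7.05 FPKM with siNC and at 6.41 FPKM with si*Malat1*, with a log2 ratio of -0.13. In GENCODE M21 it overlaps 3 annotated genes, among them *Lin37* and *Proser3* on the other strand. *Hspb8*, which encodes HSP22, the partner of BAG3, stood at 57.3 FPKM with siNC and at 72.3 FPKM with si*Malat1*, a log2 ratio of 0.33. Thus *Hspb8* and *Cryab* were on the higher side and *Hspb1* and *Hspb6* on the lower side, each by less than 1.5-fold.

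The 7 small heat shock genes together came to 1248 FPKM with siNC and 1328 FPKM with si*Malat1*, 1.06 times as much. Their makeup differed more than their sum. *Hspb1* made up 64.4% of the sum with siNC and 55.9% with si*Malat1*, a difference of -8.53 percentage points. *Cryab* made up 23.5% and 27.2%, and *Hspb2* 6.50% and 9.99%. *Hspb1* stood at 2.74 times the FPKM of *Cryab* with siNC and 2.05 times with si*Malat1*. These shares were computed after the values had been seen.

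**Figure D3:**
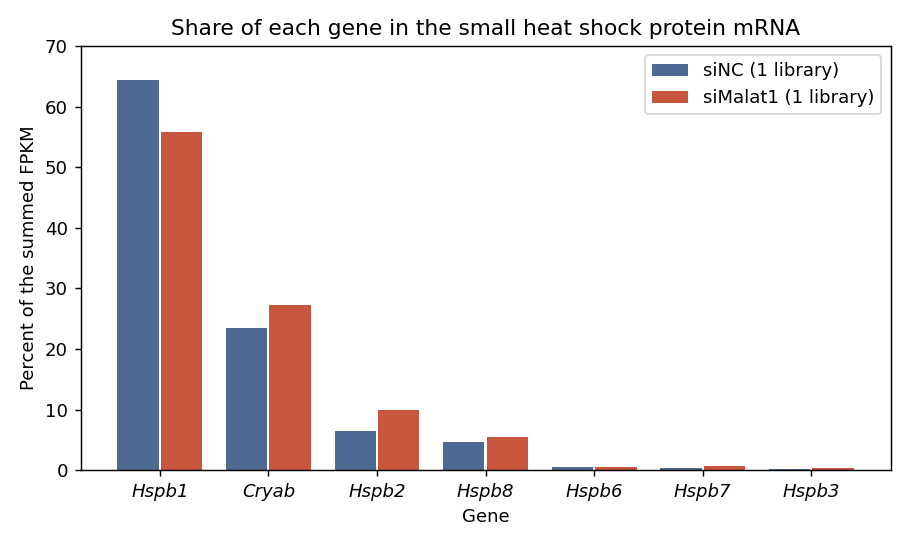
Share of each of the 7 small heat shock genes in their summed FPKM, in percent, in the siNC library (blue bars) and the si*Malat1* library (red bars). *Hspb1* stands at 64.4% with siNC and 55.9% with si*Malat1*, *Cryab* at 23.5% and 27.2%, and *Hspb2* at 6.50% and 9.99%.

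Of the remaining genes of the family, *Hspb11*, which encodes a part of the intraflagellar transport machinery of cilia, stood at 21.5 FPKM with siNC and 21.7 FPKM with si*Malat1*. *Cryaa* of the lens and the testis genes *Hspb9* and *Odf1* were under 1 FPKM in both libraries.

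*Bag3*, which couples HSPB8 to HSP70 and carries clients to autophagy, was on the lower side, unlike *Hspb8*. It stood at 49.4 FPKM with siNC and at 43.5 FPKM with si*Malat1*, a log2 ratio of -0.19. The FPKM of *Hspb8* were 1.16 times those of *Bag3* with siNC and 1.66 times with si*Malat1*. The other 4 BAG genes measured had log2 ratios from 0.00 for *Bag5* (29.5 and 29.4 FPKM, its sign turning with the scaling) to 0.23 for *Bag1* (328 and 384 FPKM), with *Bag2* (14.9 and 16.5 FPKM) and *Bag4* (3.59 and 4.15 FPKM) between them, and 0 of the 5 BAG genes reached 1.5-fold in either direction. *Bag3* therefore had the lowest ratio of the 5 BAG genes measured in these libraries. *Bag6* was not found under that symbol.

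The partners of BAG3 in selective autophagy showed no joint direction. Of 11 genes, 7 were on the higher side and 4 on the lower side, with a median log2 ratio of 0.02, and 0 reached 1.5-fold. With libraries scaled to the same sum, 5 were higher and 6 lower and the median was -0.03. The highest ratio was that of *Synpo2*, whose Z disc protein synaptopodin-2 binds BAG3 and takes part in forming the autophagosome, at 10.3 FPKM with siNC and 15.3 FPKM with si*Malat1* (log2 ratio 0.56), which passed 1.5-fold when ratios were centred on the median of all genes. The client filamin C gene *Flnc* followed at 134 and 160 FPKM (0.26). *Hspa8*, the constitutive HSP70 of the complex, stood at 821 and 752 FPKM (-0.13), and it shares its locus in the table with another gene, which makes its FPKM less certain. *Vps18*, a tethering factor of lysosomal fusion, stood at 15.0 and 13.1 FPKM (-0.19).

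The myosin assembly factors were both on the higher side. *Smyd1* stood at 25.8 FPKM with siNC and at 40.1 FPKM with si*Malat1*, a log2 ratio of 0.63, above that of 97.9% of the genes tested. *Unc45b* stood at 16.0 FPKM with siNC and at 22.3 FPKM with si*Malat1*, a log2 ratio of 0.48, above that of 96.6% of the genes tested. In GENCODE M21 *Unc45b* overlaps 2 annotated antisense transcripts and *Smyd1* overlaps 4 annotated genes on the other strand, including *Krcc1*. Whether fragments in these overlaps were told apart by strand is unknown. In the table neither *Unc45b* nor *Smyd1* shares its locus with another gene. The *Unc45b* locus spans chromosome 11 of mm9 from 82724755 to 82756908 and the *Smyd1* locus chromosome 6 from 71163934 to 71212275.

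The other 5 genes of the UNC45 and SMYD families had log2 ratios from -0.23 to 0.19. *Unc45a*, the general form that serves nonmuscle myosin, stood at 16.6 FPKM with siNC and at 14.2 FPKM with si*Malat1*, a log2 ratio of -0.23. *Unc45b* therefore went from 0.960 of the FPKM of *Unc45a* with siNC to 1.57 times with si*Malat1*. The methyltransferase genes *Smyd2* (48.4 and 51.9 FPKM), *Smyd3* (4.57 and 5.21 FPKM), *Smyd4* (6.65 and 6.09 FPKM) and *Smyd5* (21.2 and 22.7 FPKM) were among them, and *Smyd2* stood above *Smyd1* in both libraries. In the 7 genes of the UNC45 and SMYD families, *Smyd1* was the 1 gene past 1.5-fold, and 0 were with libraries scaled to the same sum.

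The clients of these factors, the sarcomeric myosin heavy chains, had larger ratios than the factors. All 7 were higher by 1.5-fold or more, with log2 ratios from 0.81 to 1.38 and a median of 1.02. Their summed FPKM were 343 with siNC and 616 with si*Malat1*, of which the embryonic chain *Myh3* made up 88.4% and 86.1%. For each FPKM of *Unc45b* there were 21.5 FPKM of myosin heavy chain with siNC and 27.6 with si*Malat1*, and for each FPKM of *Smyd1* there were 13.3 and 15.4. Among these chains the fast gene *Myh1* had the largest log2 ratio (9.26 and 24.2 FPKM) and *Myh3* the smallest (304 and 531 FPKM). The other fast chains were *Myh4* (1.71 and 4.08 FPKM, log2 ratio 1.20) and *Myh2* (3.97 and 7.36 FPKM, 0.88). *Myh6* and *Myh7* share a locus in the table with other genes. The chains are close in sequence, and how fragments shared between them were divided is not stated in the sources used here.

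A list of 10 partners of the myosin assembly factors, which holds HSP90 genes and their cochaperones, *Unc45a*, *Hspa8*, *Naca* and the muscle gene *Trim63*, had 5 genes on either side and a median log2 ratio of 0.01, whose sign turned to -0.04 with libraries scaled to the same sum. *Hsp90aa1* (111 and 106 FPKM) and *Hsp90ab1* (1395 and 1372 FPKM), the cytosolic HSP90 genes that UNC45B works with, had log2 ratios of -0.07 and -0.02, the second within the reach of the scalings. In this list the ubiquitin ligase gene *Trim63*, which encodes MuRF1 of the M band, was the 1 gene past 1.5-fold, at 9.18 FPKM with siNC and 19.3 FPKM with si*Malat1* (log2 ratio 1.06). *Naca*, whose muscle isoform skNAC binds SMYD1, stood at 220 and 282 FPKM (0.36), and the table does not separate that isoform.

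**Figure D4:**
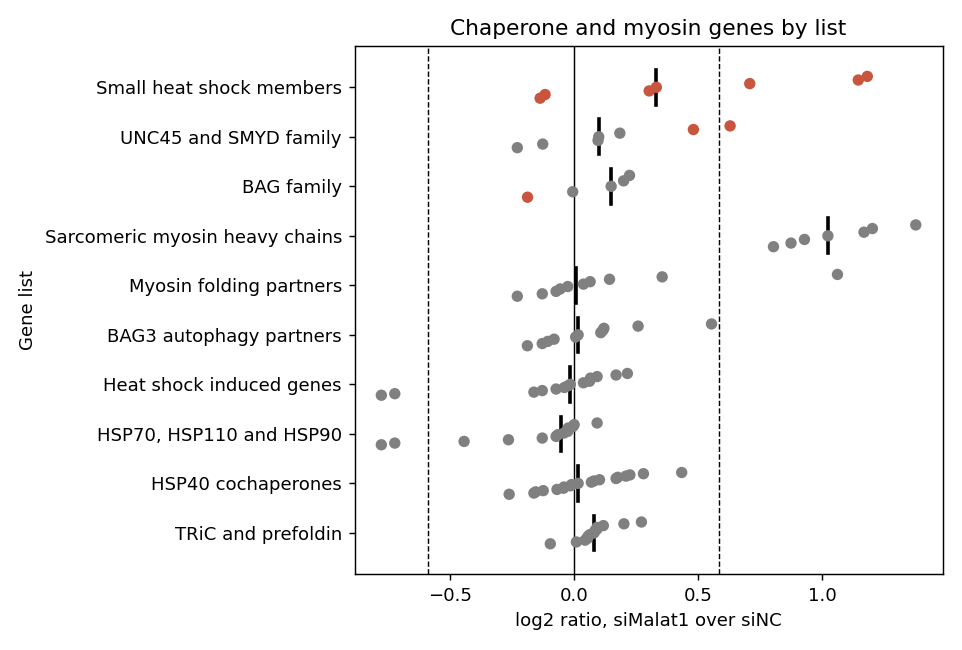
Log2 ratio of si*Malat1* over siNC for each gene averaging 1 FPKM or more in 10 gene lists, with the 10 chaperone genes in red, other genes in gray, a black bar at the median of each list and dashed lines at 1.5-fold. The sarcomeric myosin heavy chains lie from 0.81 to 1.38 and the small heat shock genes from -0.13 to 1.18, while the heat shock induced genes have a median of -0.01 and 2 genes under the lower line.

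The genes of the heat shock response showed no joint direction. Of 15 genes induced by heat shock factor in many cell types, 7 were on the higher side and 8 on the lower side, with a median log2 ratio of -0.01 that became 0.02 when centred on the median of all genes. By 1.5-fold or more, 0 were higher and 2 were lower. These were the inducible HSP70 genes *Hspa1a*, at 14.9 FPKM with siNC and 8.66 FPKM with si*Malat1* (log2 ratio -0.77), and *Hspa1b*, at 22.9 and 13.8 FPKM (-0.72). They are nearly identical copies, so their fragments may be divided between them in either way and they count as 1 observation. The highest of the 15 were *Hspd1*, which encodes the mitochondrial chaperonin HSP60, at 59.8 and 69.5 FPKM (0.22), and *Dnaja1* at 21.2 and 23.9 FPKM (0.17), which shares its locus in the table with other genes. The heat shock factor gene *Hsf1* stood at 40.1 and 34.7 FPKM (-0.21) and *Hsf2* at 11.9 and 13.4 FPKM (0.17). *Hsf4* stood at 3.87 and 3.49 FPKM (-0.15), and *Hsbp1*, whose product binds heat shock factor 1, at 147 and 158 FPKM (0.10). *Hspb1* and *Bag3*, which are well known targets of the heat shock response, were on the lower side by less than 1.5-fold. *Cryab* (log2 ratio 0.30) and *Hspb8* (0.33) were on the higher side, also by less than 1.5-fold, so the members did not share 1 direction here.

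MyoD and myogenin bind E-boxes, whose general form is CANNTG, and GAANNTTC is a core of the heat shock element, so promoters of these genes were searched for both. Which of the CANNTG matches either factor binds was not tested. RefSeq promoter windows in GRCm38.p6 were at hand for 8 of the 10 genes, all except *Hspb2* and *Cryab*, and *Hspb6* had 2 windows, which makes 9. The 250 bases before the start site were searched on both strands. *Hspb3*, *Hspb7* and *Unc45b* are shown as genes on the higher side and *Hspb1* as the most abundant gene on the lower side, each 5′ to 3′ along its gene. Not shown from the higher side are *Smyd1*, whose window held neither CANNTG nor GAANNTTC, and *Hspb8*, whose window held CAGTTG. Capitals mark CANNTG, GAANNTTC and, in *Hspb3*, a match to the MEF2 motif. The *Hspb3* window is chr13:113663677-113663926 on the minus strand, the *Hspb7* window chr4:141420529-141420778, the *Unc45b* window chr11:82911003-82911252 and the *Hspb1* window chr5:135887669-135887918, all 3 on the plus strand.
Hspb3: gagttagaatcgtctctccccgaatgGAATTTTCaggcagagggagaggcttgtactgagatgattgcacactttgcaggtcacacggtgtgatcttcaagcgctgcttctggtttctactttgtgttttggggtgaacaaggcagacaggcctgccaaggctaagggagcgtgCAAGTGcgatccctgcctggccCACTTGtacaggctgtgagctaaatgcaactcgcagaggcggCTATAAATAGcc
Hspb7: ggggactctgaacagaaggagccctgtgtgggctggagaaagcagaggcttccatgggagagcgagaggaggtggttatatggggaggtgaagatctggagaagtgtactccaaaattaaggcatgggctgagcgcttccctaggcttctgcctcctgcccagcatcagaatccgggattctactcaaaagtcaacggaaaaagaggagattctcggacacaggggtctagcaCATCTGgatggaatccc
Unc45b: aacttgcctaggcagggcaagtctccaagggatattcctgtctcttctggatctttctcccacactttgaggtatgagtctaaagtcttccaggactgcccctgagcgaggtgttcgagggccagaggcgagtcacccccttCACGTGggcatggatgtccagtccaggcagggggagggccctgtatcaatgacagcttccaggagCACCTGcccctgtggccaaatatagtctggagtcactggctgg
Hspb1: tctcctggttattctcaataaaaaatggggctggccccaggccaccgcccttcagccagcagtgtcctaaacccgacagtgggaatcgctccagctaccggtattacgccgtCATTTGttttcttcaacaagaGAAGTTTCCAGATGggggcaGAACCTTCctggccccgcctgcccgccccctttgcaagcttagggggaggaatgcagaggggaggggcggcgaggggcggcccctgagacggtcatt

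The *Hspb3* window held CAAGTG from -76 to -71 and CACTTG from -54 to -49, counted from the start site. It also held GAATTTTC from -224 to -217 and a MEF2 match from -12 to -3, which contains the letters TATAAA from -11 to -6. In *Hspb7* the match was CATCTG from -17 to -12. *Unc45b* held CACGTG from -108 to -103 and CACCTG from -43 to -38. In *Hspb1* there were CATTTG from -138 to -133 and CAGATG from -109 to -104, with GAAGTTTC from -117 to -110 and GAACCTTC from -97 to -90. E-boxes were thus present in genes of either direction.

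Over all 32851 windows of this length, 66.2% held CANNTG and 6.69% held GAANNTTC, and of the 9 member windows 5 and 3 did. CACCTG, which is also counted under CANNTG, was in 17.2% of all windows and in 1 member window, that of *Unc45b*. CAGCTG, another E-box, was in 13% of all windows and TTCNNGAA, the other arrangement of the heat shock element core, in 7.17%, and both were in 0 of the 9 member windows. The CArG box of serum response factor was in 1.47% of all windows and in 0 of the 9. The MEF2 motif was in 2.92% of all windows and in 1 member window, that of *Hspb3*. TATAAA was in 12.4% of all windows and in 3 member windows, those of *Hspb3*, *Hspb6* and *Smyd1*. *Smyd1* and *Bag3* held neither CANNTG nor GAANNTTC in these 250 bases. A match says only that the letters are present, and regions farther from the start site were not searched.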

How the data were processed

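Polyadenylated RNA was sequenced as paired fragments by the authors, from 1 siNC and 1 si*Malat1* library. Per the labels, the submitters' processing notes name TopHat2 2.0.9, Cufflinks 2.1.1, Cuffdiff 2.1.1 and the build mm9. The gene annotation and the library strand are not given in the sources used here. The deposited FPKM, estimated by the authors, are the values used, and the authors' own fold change and call columns were not used. Of 22095 genes, 3375 share a locus with another gene, and none of the 10 members does. Locus starts were raised by 1, since 6044 of 16386 single-gene loci then match the length of the RefSeq gene, against 414 as given.

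Log2 ratios were computed after adding 0.1 FPKM, and shares past 1.5-fold over the 11132 genes averaging 1 FPKM or more. No test was run. The depth behind the FPKM is unknown. Among 1937 genes of at most 0.1 FPKM, ratios of small whole numbers were matched by 267 genes at a step of 1.45 and by 227 at 1.09, so that low values did not settle it. The alternatives were other pseudocounts, scalings, folds and minimum levels. The members and lists were chosen with earlier results of these data known. Named outside the members are *Malat1*, the markers and the 2 largest and 2 smallest ratios of each list, and other genes were named after their values were seen. Python 3.11.15, numpy 2.4.6, pandas 2.3.3 and matplotlib 3.10.9 were used, and the calculation was tested on simulated data.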

Additional observations from a re-analysis of the deposited data

How the results depend on the processing

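No paired analysis was possible because each condition has 1 library, and for the same reason no replicate could be left out. All 10 members kept their sign under both other pseudocounts and all 3 other scalings. The count of members higher by 1.5-fold or more was 4, and it was 3 with libraries scaled to the same sum, 3 among members averaging 5 FPKM or more and 3 for the small heat shock genes alone. Without rescaling it was 6 past a log2 ratio of 0.32 and 2 at 2-fold. *Hspb8* and *Cryab* lay close to the 0.32 line and crossed it under some scalings. The count lower by 1.5-fold or more was 0 and stayed at 0 in each of these settings. With a pseudocount of 1 FPKM, *Hspb3* had a log2 ratio of 0.88 and *Hspb7* of 1.00. The share of genes higher by 1.5-fold or more was 3.60% over the 15080 genes above 0 in both libraries and 1.55% for genes averaging 5 FPKM or more, and the share lower was 3.22% and 0.956%. The scalings moved the log2 ratio of every gene by -0.05 to 0.04. With single libraries the precision of each value is unknown, and it is least certain for *Hspb3*, *Hspb7* and *Hspb6*, whose mean is under 10 FPKM.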

Other observations

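Of 13 genes of the TRiC chaperonin, which folds actin and tubulin, and of its helper prefoldin averaging 1 FPKM or more, 12 were on the higher side (10 with libraries scaled to the same sum), with a median log2 ratio of 0.08 and 0 past 1.5-fold. The largest ratios were those of the prefoldin genes *Pfdn4* (20.9 FPKM with siNC and 25.3 with si*Malat1*) and *Pfdn2* (132 and 152 FPKM). *Pfdn1* was the 1 gene on the lower side (64.0 and 60.0 FPKM), with the TRiC subunit gene *Cct6a* next (131 and 132 FPKM). *Pfdn4* and *Cct6a* each share a locus in the table with another gene, which makes their FPKM less certain. Of 19 HSP40 genes, which hand clients to HSP70, 10 were on the higher side, from 9 to 12 under the other scalings, and 0 reached 1.5-fold. *Dnajb5* had the highest log2 ratio of these (22.7 and 30.7 FPKM, 0.44) and *Dnajc9* the lowest (19.7 and 16.5 FPKM, -0.26), and *Dnajb2* (24.6 and 29.9 FPKM) and *Dnajb1* (33.8 and 30.2 FPKM) were next to them. Of 14 HSP70, HSP110 and HSP90 genes, 12 were on the lower side (8 when centred on the median of all genes and 13 with libraries scaled to the same sum). Over all 11132 genes tested, 4735 were on the higher side and 6397 on the lower side. The median log2 ratio of the 14 genes was -0.05 against -0.04 over all genes tested. By 1.5-fold or more 0 of these were higher and 2 lower, the near-identical *Hspa1a* (log2 ratio -0.77) and *Hspa1b* (-0.72). The 2 on the higher side were *Hsph1* (31.3 and 33.4 FPKM) and *Hspa13* (14.6 FPKM in both, its sign turning with the scaling).

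Of 12 genes of proteins that the chaperones bind or fold, 11 were on the higher side, with a median log2 ratio of 0.76. By 1.5-fold or more 9 were higher, where 2.39% of all genes tested were. These include *Myh1*, *Myh2*, *Myh3*, *Myh4*, *Myh7* and *Myh8*, which were already counted above. The others past 1.5-fold were *Ttn* (log2 ratio 0.71), *Actc1* (0.68) and *Acta1* (0.64). The intermediate filament genes that small heat shock proteins bind went in opposite directions. *Des*, the desmin of mature muscle, had a log2 ratio of 0.13, and *Vim*, the vimentin of myoblasts and fibroblasts, stood at 1783 FPKM with siNC and 1289 FPKM with si*Malat1*, a log2 ratio of -0.47.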
